A study of Mus musculus with 8 samples.

Results

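The Hox genes of the mouse were followed by RNA-seq in fibroblasts that were being reprogrammed, and all genes of the deposited table whose symbol is Hox, a cluster letter from a to d and a number were taken as members. This gave 38 of 18990 genes, with 11 in cluster A, 10 in cluster B, 9 in cluster C and 8 in cluster D. *Hoxd1* was not analysed here. The cells were primary mouse embryonic fibroblasts (MEFs), labelled as strain BL6, wild-type in genotype and reprogrammed at passage 2, and all of them carried lentiviral rtTA and the tet-STEMCCA cassette, which encodes Oct4, Sox2, Klf4 and c-Myc (OSKM) under control of doxycycline. They received pooled siRNAs against *Ncor1* or against Oct4 at 40 nM and were then kept in doxycycline with chiron, an Alk5 inhibitor of TGF-beta signalling, ascorbic acid and LIF. RNA was collected at day 3 and at day 6 of reprogramming, which gave 4 groups of 2 libraries: siNcor1 day 3, siOct4 day 3, siNcor1 day 6 and siOct4 day 6. Libraries of cells with a non-targeting siRNA were not analysed here, so the comparisons made here set one knockdown against the other, or one day against the other. The siRNAs were given before doxycycline. The labels call the 2 libraries of a group biological replicates but do not say that they came from separate animals or cultures, so the p-values measure only the spread between these libraries. Unless said otherwise, p-values are from limma and were adjusted by Benjamini-Hochberg over all genes tested, a gene was called at an adjusted p under 0.05, and differences are on the scale of the deposited log2-cpm values.

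Hox genes encode homeodomain transcription factors that give cells their position along the body axis and the limbs. They lie in 4 clusters, and the order of the genes in a cluster follows the order in which they are used from anterior to posterior, so that genes of the same number in different clusters are paralogues. Fibroblasts keep the Hox pattern of the body site they came from. Polycomb proteins keep silent clusters closed, the MLL and menin proteins keep used ones open, and retinoic acid and the Cdx factors switch them on in the embryo.

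The level of the targeted genes was checked first. *Ncor1*, the corepressor targeted in the siNcor1 libraries, was lower in siNcor1 at day 3, where the libraries labelled siOct4 exceeded it by 0.74 on the log2 scale (SE 0.12, adjusted p = 0.0139), and the difference at day 6 was −0.042 (adjusted p = 0.815). *Pou5f1*, the gene of OCT4, was not called at day 3 (log2 difference of siOct4 and siNcor1 −0.076, adjusted p = 0.941), and at day 6 it was higher in siOct4 by 1.78 (SE 0.16, adjusted p = 1.09e-04). Reads of the Oct4 in the cassette and of the cell's own gene were not told apart. The libraries are therefore called by their label, siOct4, in all that follows. The reads on genes were between 7735742 and 16445192 per library, and the lowest total was that of siOct4 day 3 replicate 2. Between 1834 and 3950 reads per library were on Hox genes, and 3 reads of a gene correspond to between 0.174 and 0.380 CPM, the reads of a gene scaled to the library's size. The unnamed gene model *Gm26917* held 15.5% to 16.6% of all reads in the day 3 libraries and 20.3% to 29.1% in those of day 6, with the highest share in siOct4 day 6 replicate 1. The 12 markers of fibroblasts summed to between 11252 and 11677 CPM in siNcor1 day 3, 14572 and 16950 in siOct4 day 3, 7737 and 8113 in siNcor1 day 6, and 4431 and 4436 in siOct4 day 6. Of these 12 markers, 11 were lower in siOct4 than in siNcor1 at day 6, against 18.6% of all tested genes. In siOct4, 8 fell from day 3 to day 6 and none rose, against 30.5% and 22.2% of all tested genes. In siNcor1, 4 fell and 4 rose, against 20.9% and 13.8%. The 7 markers of pluripotent cells summed to at most 1.36 CPM at day 3, to between 72.0 and 82.4 in siNcor1 day 6 and to between 25.8 and 26.8 in siOct4 day 6. From lists of 5 markers each, 4 genes were summed for macrophages, 4 for endothelium, 2 for skeletal muscle (*Des* and *Acta1*) and 4 for neural cells. In this order, the sums were between 4.35 and 10.0 CPM, 16.4 and 44.3, 15.3 and 116, and 43.0 and 126. The neural sum was highest in siOct4 day 6, at 109 and 126. The defining markers *Ptprc*, *Tie1*, *Myod1*, *Myog*, *Myf5* and *Dcx* were on these lists but had no row of that symbol in the deposited table, so they were not analysed. Replicates differed by more than counting error, as a chi-square divided by its degrees of freedom gave 9.48 to 10.6 in 3 groups and 21.3 in siOct4 day 6. In bulk samples, fewer cells that express a gene and less RNA per cell cannot be told apart.

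The clusters lie on GRCm38 chromosomes 6 (cluster A), 11 (B), 15 (C) and 2 (D), where the members span 105, 174, 116 and 80.1 kb. The promoter windows below are shown because they belong to members whose level differed in at least one comparison, and they are the 5 such windows of the RefSeq promoter table (GRCm38.p6) that overlapped no annotated exon. Each is the 250 bases before the start site, 5′ to 3′ on the strand of the gene, and capitals mark matches to the motifs that were searched.
Hoxa5: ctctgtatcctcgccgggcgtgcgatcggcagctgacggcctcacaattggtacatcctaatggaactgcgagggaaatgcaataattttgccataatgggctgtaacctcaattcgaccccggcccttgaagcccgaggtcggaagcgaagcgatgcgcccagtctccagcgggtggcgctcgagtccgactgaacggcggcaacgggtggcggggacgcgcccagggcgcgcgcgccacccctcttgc
Hoxa9: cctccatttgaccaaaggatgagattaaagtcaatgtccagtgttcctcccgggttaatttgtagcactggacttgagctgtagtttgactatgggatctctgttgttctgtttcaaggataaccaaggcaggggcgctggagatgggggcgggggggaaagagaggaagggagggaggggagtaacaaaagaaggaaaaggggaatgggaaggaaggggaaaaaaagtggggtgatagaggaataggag
Hoxa13: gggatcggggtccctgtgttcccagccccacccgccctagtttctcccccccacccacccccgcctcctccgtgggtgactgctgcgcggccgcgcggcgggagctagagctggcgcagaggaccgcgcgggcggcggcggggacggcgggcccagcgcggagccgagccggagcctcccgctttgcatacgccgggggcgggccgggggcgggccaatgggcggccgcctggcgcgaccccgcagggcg
Hoxb4: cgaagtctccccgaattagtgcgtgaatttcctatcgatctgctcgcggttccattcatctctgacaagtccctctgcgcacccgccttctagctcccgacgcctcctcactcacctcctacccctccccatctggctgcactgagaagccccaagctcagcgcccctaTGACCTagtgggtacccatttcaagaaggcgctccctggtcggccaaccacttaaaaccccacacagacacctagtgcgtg
Hoxd13: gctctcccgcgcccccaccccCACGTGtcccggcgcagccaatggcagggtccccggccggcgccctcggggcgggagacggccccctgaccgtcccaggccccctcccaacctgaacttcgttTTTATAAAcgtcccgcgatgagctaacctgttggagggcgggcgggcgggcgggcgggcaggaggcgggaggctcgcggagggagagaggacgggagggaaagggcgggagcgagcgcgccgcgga

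These windows lie at chr6:52204588-52204837 (minus strand) for *Hoxa5*, chr6:52227371-52227620 (minus) for *Hoxa9*, chr6:52260881-52261130 (minus) for *Hoxa13*, chr11:96318017-96318266 (plus) for *Hoxb4* and chr2:74667975-74668224 (plus) for *Hoxd13*. The window of *Hoxa9* lies between exons of the longer GENCODE model of that gene. The GC content was 80.0% for *Hoxa13*, 74.4% for *Hoxd13*, 63.6% for *Hoxa5*, 58.0% for *Hoxb4* and 49.6% for *Hoxa9*, where the median of all 32851 windows was 52.4%. The windows of *Hoxa13*, *Hoxd13*, *Hoxa5* and *Hoxb4* held 35, 31, 28 and 14 CpG dinucleotides, above the median of 6, and that of *Hoxa9* held 3. The table held 23 windows for 21 of the 38 members. The TATA box core TATAAA was found on either strand in 4 of the 23 windows and in 12.4% of all windows. It was present in *Hoxd13* as 2 overlapping matches, one on each strand. The E-box CACGTG was found in 3 windows (6.02% of all windows), among them *Hoxd13*. The nuclear receptor half-site AGGTCA was found in 6 (14.0%), among them *Hoxb4* on the minus strand. The octamer ATGCAAAT was found in none (1.60%), and TGATNNAT, a form bound by Hox and Pbx proteins together, was found in 4 (7.68%). A match is a description of letters and not of binding.

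Most Hox genes were expressed at low levels in these cells. On the scale of CPM per kilobase of transcript, averaged over the 8 libraries, *Hoxd13* was highest at 9.52, which was above 68.9% of all tested genes. It was followed by *Hoxc6* at 8.71, *Hoxb9* at 7.61, *Hoxc8* at 5.63 and *Hoxb7* at 3.91. *Hoxd13* is the last gene of its cluster and patterns the digits, whereas *Hoxb9*, *Hoxc6* and *Hoxc8* are genes of the trunk. With these levels, genes from the central and posterior parts of the clusters led, and the anterior genes were low: *Hoxb3* was the highest gene of groups 1 to 3 at 1.24 CPM per kilobase. Of the 38 members, 33 had a mean of at least 1 CPM and were tested. The other 5 were *Hoxb1*, a hindbrain gene, with 6 reads over all 8 libraries, *Hoxc12* with 18, *Hoxd3* with 29, *Hoxb13* with 31 and *Hoxd12* with 83. *Hoxd3* and *Hoxd4* share 62.3% and 52.3% of their exon bases with other models on the same strand, each other included, so their reads could be split in counting. The overlap between *Hoxc5* and *Hoxc10* was 5.37% and 8.70% of their exon bases.

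Summed over all members, the Hox genes took 244 and 211 CPM in the siNcor1 day 3 libraries, 260 and 246 in siOct4 day 3, 209 and 200.0 in siNcor1 day 6, and 194 and 160 in siOct4 day 6. The day 6 libraries labelled siOct4 were thus the lowest, and the libraries labelled siOct4 at day 3 the highest. By cluster, the ratio of the means at day 6 and day 3 in siOct4 was 0.928 for cluster A, 0.640 for B, 0.499 for C and 0.884 for D. In siNcor1 the ratios were 0.883, 1.00, 0.919 and 0.765. Cluster C took 93.1 and 80.9 CPM in siOct4 day 3 and 46.8 and 40.1 in siOct4 day 6, against 72.8 and 60.3 in siNcor1 day 3 and 63.0 and 59.3 in siNcor1 day 6. These sums are weighted to the most abundant genes and have no test.

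**Figure D1:**
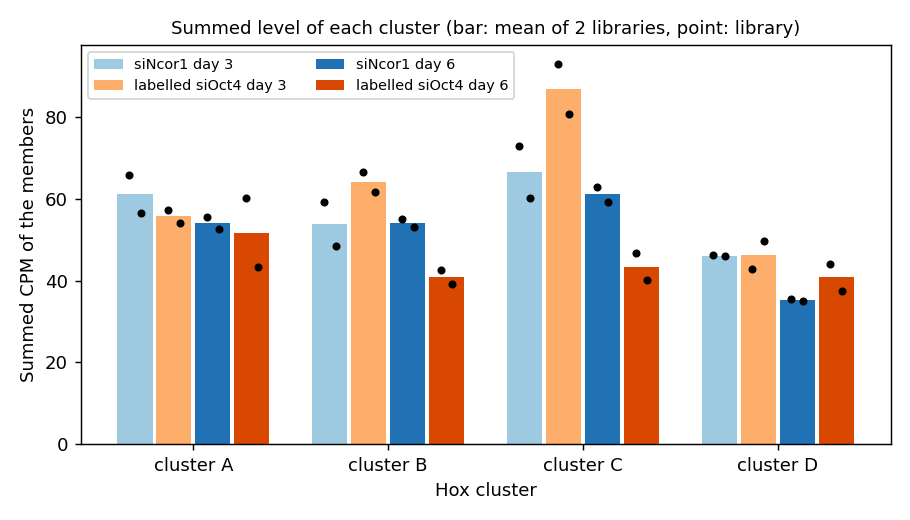
Summed CPM (vertical) of the members of each Hox cluster (horizontal) in the 4 groups, with bars for the mean of 2 libraries and points for the libraries. In cluster C the siOct4 day 6 libraries, at 46.8 and 40.1, lie below all other libraries.

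The days were compared within each knockdown to ask how the Hox genes behaved as reprogramming went on. In siOct4, 12 of the 33 tested members changed between day 3 and day 6. The genes that fell were *Hoxa3*, *Hoxa5*, *Hoxb4*, *Hoxb5*, *Hoxb9*, *Hoxc5*, *Hoxc6*, *Hoxc8*, *Hoxc9*, *Hoxc10* and *Hoxc13*, and *Hoxb7* rose. Of all 13866 tested genes, 52.7% passed the same threshold in this comparison, 30.5% lower and 22.2% higher, so that the 33.3% of Hox members that fell is near the share of all genes. Of the tested members 25 were below 0 and 8 above, where 54.2% and 45.8% of all genes were. Both libraries of day 6 lay below both of day 3 in 18 members and above them in 3, against 42.1% and 32.7% of all genes. The median log2 difference of the tested members was −0.44, and that of all tested genes was −0.079. The share of higher genes among all calls was 42.1%, and it became 52.5% when libraries were scaled to totals without *Gm26917*. That scaling moved the median of all genes to 0.055.

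Cluster C had the highest number of members that fell. Of its 8 tested members, 6 fell (75.0%) and none rose, where 30.5% of all tested genes fell and 22.2% rose. The median log2 difference was −0.96, against −0.31 in cluster A, −0.63 in B and −0.20 in D. Under each of 4 other scalings of the libraries 6 members of cluster C were lower with medians between −1.08 and −0.83. When single libraries were left out, 5 or 6 were lower. The difference between clusters was not tested, since the genes of a cluster are not replicates.

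*Hoxc8*, a gene of the thoracic trunk, had the largest drop of the 33 members in this comparison. It had 25.0 and 23.3 CPM in siOct4 day 3 and 7.19 and 7.30 in siOct4 day 6, against 18.7 and 15.6 in siNcor1 day 3 and 15.3 in both siNcor1 day 6 libraries. Both siOct4 libraries of day 6 lay below all the others. The fall in siOct4 was 3.29-fold (log2 difference −1.72, SE 0.16, adjusted p = 5.91e-06). *Hoxc13*, the last gene of the cluster, used in hair and nails, had 2.51 and 2.78 CPM in siOct4 day 3 and 0.634 and 0.934 in siOct4 day 6. These values rest on 37, 22, 6 and 11 reads. The groups did not overlap, and the fall was 3.06-fold (log2 difference −1.61, SE 0.35, adjusted p = 0.0022).

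*Hoxc10*, which acts in the hindlimb and lumbar region, went from 7.32 and 6.58 CPM to 3.17 and 2.89 (log2 difference −1.16, SE 0.23, adjusted p = 0.00112). *Hoxc5*, a gene of the neck region, went from 16.3 and 11.1 to 6.45 and 6.28 CPM (−1.07, SE 0.22, adjusted p = 0.00164). *Hoxc6*, of the upper thorax, went from 26.6 and 23.9 to 17.2 and 12.6 CPM (−0.77, SE 0.17, adjusted p = 0.0026). In none of these genes did a library of day 6 reach a library of day 3. *Hoxc9* went from 6.16 and 5.32 to 3.91 and 2.46 CPM (−0.85, SE 0.28, adjusted p = 0.0239). Its call was lost without siOct4 day 3 replicate 1 (−0.75, adjusted p = 0.117), without siOct4 day 3 replicate 2 (−0.96, adjusted p = 0.0565) or without siOct4 day 6 replicate 2 (−0.53, adjusted p = 0.145). *Hoxc4* and *Hoxc11* were not called. The siOct4 day 6 libraries were apart for *Hoxc11*, at 1.48 and 3.65 CPM from 14 and 43 reads.

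In cluster B, 3 of 8 tested members fell and 1 rose (37.5% and 12.5%), where 30.5% and 22.2% of all tested genes did. *Hoxb9*, a posterior gene of the thorax, had 29.2 and 24.6 CPM in siOct4 day 3 and 9.40 and 10.9 in siOct4 day 6, against 25.1 and 21.6 in siNcor1 day 3 and 16.2 and 19.8 in siNcor1 day 6. The siOct4 day 6 libraries were again the lowest, and the fall was 2.63-fold (log2 difference −1.39, SE 0.17, adjusted p = 4.42e-05). *Hoxb5* went from 2.98 and 3.80 to 1.48 and 1.27 CPM (−1.21, SE 0.32, adjusted p = 0.00786). Without siOct4 day 3 replicate 2 its log2 difference was −1.05 (adjusted p = 0.0635). *Hoxb4*, which also acts in blood stem cells, went from 10.3 and 10.1 to 6.87 and 6.96 CPM (−0.55, SE 0.22, adjusted p = 0.0476). It was close to the threshold and was called in 2 of 8 fits that left out a library: the call was lost without either siOct4 day 3, siNcor1 day 6 or siOct4 day 6 library, with adjusted p between 0.0503 and 0.141. Of 11 other settings it was called in 5, and it was lost with median centring, totals without *Gm26917*, no filter on low values, no trend of the variance, voom or a fit of the groups compared alone (adjusted p up to 0.109).

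*Hoxb7* was the only member called higher in siOct4 at day 6 than at day 3. It had 4.27 and 4.18 CPM in siOct4 day 3, 8.03 and 8.49 in siOct4 day 6, 5.32 and 5.22 in siNcor1 day 3 and 6.69 and 6.05 in siNcor1 day 6. Its 2 libraries of siOct4 day 6 were the highest, and those of siOct4 day 3 the lowest. The rise was 1.93-fold (log2 difference 0.95, SE 0.20, adjusted p = 0.00168). It lies between *Hoxb6* and *Hoxb8*, whose log2 differences were −0.44 and −0.71, neither of them called.

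In cluster A, *Hoxa3* and *Hoxa5* fell (18.2% of its tested members, against 30.5% of all tested genes), and the other 9 tested members were not called. *Hoxa3*, needed in the thymus and the third pharyngeal arch, went from 5.76 and 5.32 to 3.70 and 1.78 CPM (log2 difference −1.06, SE 0.31, adjusted p = 0.0124). *Hoxa5*, a gene of the lung and neck, went from 5.42 and 4.94 to 3.28 and 2.12 CPM (−0.94, SE 0.27, adjusted p = 0.0129). In both genes the 2 libraries of day 6 lay apart, with replicate 2 the lower. Without that library the log2 differences were −0.56 for *Hoxa3* (adjusted p = 0.0964) and −0.64 for *Hoxa5* (adjusted p = 0.0778). Both calls were also lost without siOct4 day 3 replicate 1, with adjusted p of 0.0615 and 0.0663. None of the 6 tested members of cluster D was called, where 52.7% of all tested genes were. Their log2 differences were between −0.76 and 0.62. The siOct4 day 6 libraries disagreed for *Hoxd11*, at 2.96 and 0.679 CPM, and for *Hoxa7*, at 10.7 and 4.33 CPM. Without siOct4 day 6 replicate 1, *Hoxd11* was called lower (−1.72, adjusted p = 0.00994), and without replicate 2, *Hoxa7* was called higher (0.85, adjusted p = 0.00886).

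By position, 1 of 5 tested anterior members (groups 1 to 3), 6 of 15 central members (groups 4 to 8) and 4 of 13 posterior members (groups 9 to 13) fell in siOct4, and 1 central member rose. The medians were −0.85, −0.44 and −0.31. By paralogue group, all 3 tested members of group 5 fell, but the calls of *Hoxa5* and *Hoxb5* were lost in fits given above that left out a library. In group 9, *Hoxb9* and *Hoxc9* fell, whereas *Hoxa9* and *Hoxd9* had log2 differences of 0.21 and 0.26 and were not called. The fall of these genes went together with that of the fibroblast markers and with the higher share of *Gm26917* given above, and their part in the result was not tested.

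In siNcor1 the days differed in 1 member. *Hoxd13*, the most abundant one, had 24.8 and 28.6 CPM in siNcor1 day 3 and 19.2 and 17.7 in siNcor1 day 6, which do not overlap, and it fell 1.44-fold (log2 difference −0.53, SE 0.15, adjusted p = 0.0181). In siOct4 it had 25.2 and 29.5 CPM at day 3 and 23.5 and 20.6 at day 6, which was not called. In this comparison 34.8% of all tested genes were called, 20.9% lower and 13.8% higher, and 3.03% of the Hox members. The call was lost without siNcor1 day 3 replicate 2 (log2 difference −0.43, adjusted p = 0.146), without siNcor1 day 6 replicate 1 (−0.58, adjusted p = 0.0635) or without siNcor1 day 6 replicate 2 (−0.47, adjusted p = 0.114). Of the members 21 were below 0 and 12 above, where 54.8% and 45.2% of all genes were, and without overlap of the libraries 11 were lower and 3 higher, against 41.7% and 31.4%. Among genes that missed the threshold, *Hoxa9* had a log2 difference of −0.55 (adjusted p = 0.0736) and *Hoxa11* of 0.52 (adjusted p = 0.0786). The median of the members was −0.18, and that of all tested genes was −0.068.

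The knockdowns were then compared at each day. These comparisons use the same libraries as those between the days. At day 3 none of the 33 members was called by limma, where 1.07% of all tested genes were (0.375% higher and 0.692% lower), and none was called by voom on recovered reads. At an unadjusted p under 0.05 there were 4 members by limma and 5 by voom, and by limma 1460 of the 13866 tested genes. By cluster, the log2 difference of siOct4 and siNcor1 was above 0 in 8 of 8 members of cluster C and 7 of 8 of cluster B, and below 0 in 10 of 11 members of cluster A. Of all tested genes, 54.0% were below 0 and 46.0% above. The medians were 0.29 in C, 0.39 in B, −0.14 in A and −0.022 in D. In the fits that left out a library, between 6 and 8 members of cluster C and between 6 and 7 of B were above 0, and between 5 and 10 of cluster A were below 0. Under 4 other scalings between 8 and 10 of cluster A were below 0. In 11 members both libraries labelled siOct4 lay above both siNcor1 libraries, 6 of them in cluster C and 4 in B, and in 2 members they lay below. For all tested genes these shares were 20.7% and 22.7%.

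The 4 members with the smallest unadjusted p at day 3 were *Hoxc8*, *Hoxc13*, *Hoxa13* and *Hoxc5*. *Hoxc13* had 1.30 and 1.04 CPM in siNcor1 and 2.51 and 2.78 in siOct4 (log2 difference 1.09, SE 0.35, adjusted p = 0.208). *Hoxa13*, the last gene of cluster A, which acts in the digits and the urogenital tract, had 8.17 and 5.86 CPM in siNcor1 and 4.20 and 4.05 in siOct4 (−0.73, SE 0.26, adjusted p = 0.275). In both genes the groups did not overlap, in opposite directions.

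At day 6, 5 members were called. *Hoxa13*, *Hoxb9*, *Hoxc6* and *Hoxc8* were lower in siOct4 than in siNcor1, and *Hoxa9* was higher. For all tested genes 30.7% were called, 18.6% lower and 12.1% higher, and for the Hox members 15.2%. *Hoxc8* was 2.09-fold lower (log2 difference −1.06, SE 0.16, adjusted p = 8.57e-04), and this call held in each fit that left out a library. *Hoxb9* was 1.76-fold lower (−0.81, SE 0.17, adjusted p = 0.0048), but not when siNcor1 day 6 replicate 2 was left out (−0.67, adjusted p = 0.0679). *Hoxc6* had 23.3 and 22.3 CPM in siNcor1 and 17.2 and 12.6 in siOct4 (−0.63, SE 0.17, adjusted p = 0.0176). Its call was lost without either siNcor1 day 6 library (adjusted p of 0.0881 and 0.0857) and without siOct4 day 6 replicate 2 (−0.40, adjusted p = 0.0748).

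*Hoxa13* had 7.77 and 5.80 CPM in siNcor1 day 6 and 3.91 and 2.80 in siOct4 day 6, a 1.99-fold difference (log2 difference −0.99, SE 0.26, adjusted p = 0.0142). It was thus low in the libraries labelled siOct4 at both days, with −0.73 at day 3 not past the threshold. Its call was lost without siNcor1 day 6 replicate 1 (−0.78, adjusted p = 0.111) or siOct4 day 6 replicate 2 (−0.76, adjusted p = 0.0539). *Hoxa9*, a gene of the posterior trunk and of blood progenitors, had 10.0 and 7.73 CPM in siNcor1 day 6 and 16.7 and 11.1 in siOct4 day 6 (0.62, SE 0.22, adjusted p = 0.0495). The groups did not overlap, but the call was kept in only 1 of 8 fits that left out a library, the one without siOct4 day 6 replicate 2. In the other 7 the adjusted p was between 0.0575 and 0.310, and the log2 difference was 0.33 without siOct4 day 6 replicate 1. Of 12 other settings it was called in 7, and it was lost with totals without normalization factors, no filter, no trend of the variance, voom or a fit of the groups compared alone (adjusted p up to 0.102). *Hoxa9* and *Hoxa13* lie in the same cluster, and the promoter windows shown above differ in GC content, at 49.6% and 80.0%. A link between GC content and these differences was not tested.

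Other members at day 6 missed the threshold with differences in both directions. *Hoxa4* had 0.826 and 1.60 CPM in siNcor1 and 2.01 and 3.48 in siOct4 (log2 difference 1.11, SE 0.40, adjusted p = 0.0524). *Hoxa5* and *Hoxb5* had −0.67 (adjusted p = 0.0858) and −0.80 (adjusted p = 0.0802). Without siOct4 day 6 replicate 1, *Hoxa4* (1.49, adjusted p = 0.0266), *Hoxc11* (1.69, adjusted p = 0.0106) and *Hoxa5* (−0.96, adjusted p = 0.0271) were called. Of the members 22 were below 0 and 11 above, where 51.8% and 48.2% of all genes were. Without overlap between the groups, 7 members were higher and 15 lower in siOct4, where 29.9% and 34.8% of all tested genes were. In cluster D no member was lower in this way and 3 were higher.

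Whether the difference between the knockdowns itself changed from day 3 to day 6 was tested with the interaction of knockdown and day. In 4 members the difference became lower: *Hoxb9*, *Hoxc6*, *Hoxc8* and *Hoxc13*. No member was called in the other direction, and for all tested genes 20.7% were called, 12.9% lower and 7.77% higher. The change was below 0 in 23 members and above 0 in 10, where 49.2% and 50.8% of all genes were. For *Hoxc8* the change was −1.56 (SE 0.22, adjusted p = 0.00119), from a log2 difference of 0.50 at day 3 to −1.06 at day 6, and it was called in all fits that left out a library. For *Hoxb9* it was −1.02 (SE 0.24, adjusted p = 0.0133). That call was lost without siNcor1 day 3 replicate 2 (adjusted p = 0.0787), siOct4 day 3 replicate 1 (0.0542) or siNcor1 day 6 replicate 2 (0.0749). For *Hoxc6* it was −0.90 (SE 0.24, adjusted p = 0.024), and for *Hoxc13* −1.65 (SE 0.49, adjusted p = 0.035). Of 8 fits that left out a library, *Hoxc6* was called in 3, all but those without siNcor1 day 3 replicate 2, either siOct4 day 3 library or either siNcor1 day 6 library. *Hoxc13* was called in 1, that without siOct4 day 6 replicate 2. The adjusted p reached 0.115 for *Hoxc6* and 0.133 for *Hoxc13*. The fibroblast markers showed a like shift, with 11 of 12 called lower in this test, and their part in the Hox result was not tested.

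**Figure D2:**
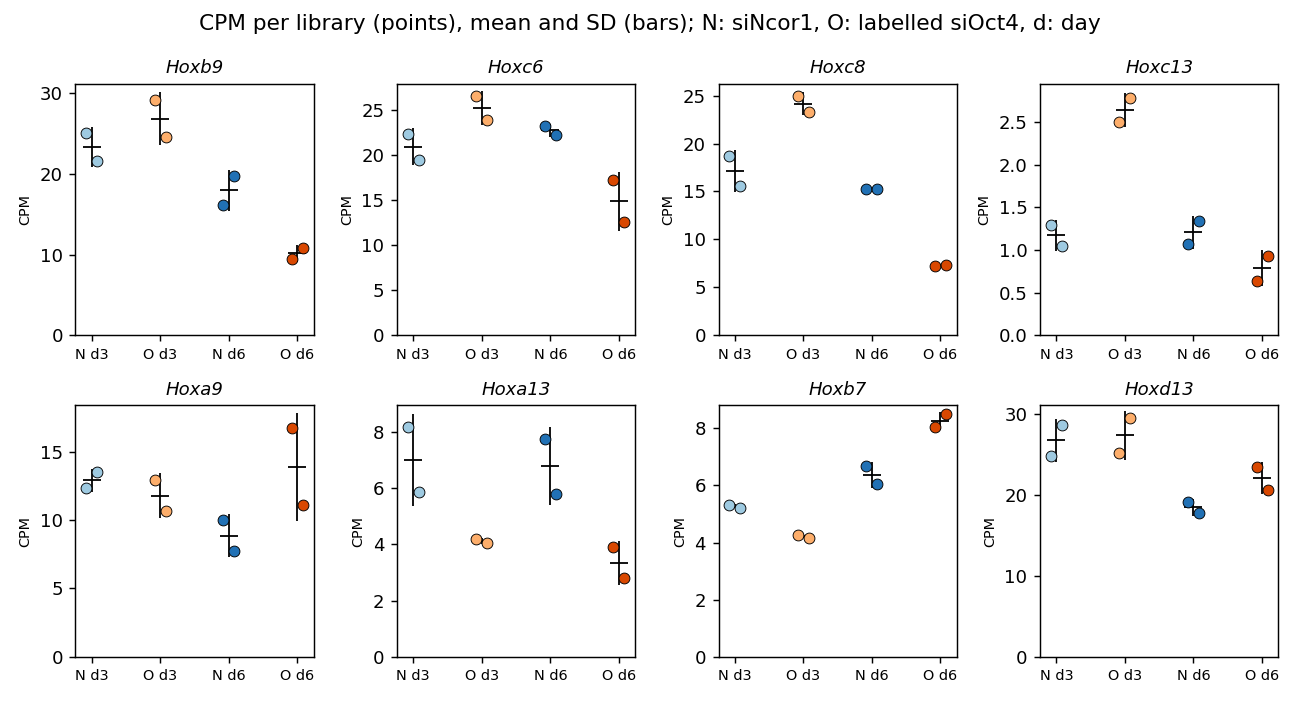
CPM (vertical) of 8 Hox genes in each library (points), with the mean and SD of 2 libraries (bars), for siNcor1 (N) and siOct4 (O) at day 3 and day 6 (horizontal). *Hoxb9*, *Hoxc6*, *Hoxc8* and *Hoxc13* have their highest mean in siOct4 day 3 and their lowest in siOct4 day 6, whereas *Hoxb7* has the reverse.

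Hox proteins bind DNA with cofactors of the Pbx, Meis and Pknox families, and all 9 genes of these families were tested. At day 6, 3 of 9 were lower in siOct4 than in siNcor1 and none was higher, where 18.6% and 12.1% of all tested genes were. Among them were *Meis2* (log2 difference −0.62, adjusted p = 0.00688) and *Pbx2* (−0.51, adjusted p = 0.0229). From day 3 to day 6 in siOct4, 4 fell and 1 rose, against 30.5% and 22.2% of all genes. The log2 differences were −0.91 for *Pknox2*, −0.63 for *Pbx3* and −0.52 for *Meis1*, and 0.95 for *Pbx4* (adjusted p = 0.0238). In siNcor1, *Pbx3* (−0.74) and *Pknox2* (−1.01) fell and *Pbx2* (0.46) rose.

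Of the 13 listed upstream regulators, 11 were tested. From day 3 to day 6 in siOct4, 5 rose and 3 fell, where 22.2% of all tested genes rose and 30.5% fell. *Gmnn*, a replication licensing inhibitor that also binds Hox proteins, rose by 1.48 (adjusted p = 1.45e-04), and the Polycomb genes *Eed* and *Rnf2* rose by 0.52 and 0.42. *Men1*, the gene of menin, rose by 0.49. *Kmt2a*, the gene of MLL, fell by 0.55 on the log2 scale (adjusted p = 0.00403), *Ctcf*, which sets boundaries in the clusters, fell by 0.52, and the Polycomb methyltransferase gene *Ezh2* fell by 0.47. *Cdx1* was the remaining gene that rose. It had 0 reads in all 4 libraries of day 3, 37 and 46 reads in siNcor1 day 6 and 10 and 6 in siOct4 day 6, and was lower in siOct4 at day 6 (adjusted p = 0.0145). The other calls at day 6 were *Cbx2* (0.78), *Eed* (0.53) and *Men1* (0.42), all higher in siOct4. In siNcor1 over time, *Gmnn* and *Cdx1* rose, and *Ezh2* (−0.93), *Ctcf* (−0.70), *Suz12* (−0.51) and *Bmi1* (−0.36) fell. At day 3 no regulator was called.

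Of 6 genes of retinoic acid signalling, 4 were tested, and 3 of them were lower in siOct4 at day 6, as were 18.6% of all tested genes. *Cyp26b1*, which degrades retinoic acid, had a log2 difference of −0.64 (adjusted p = 0.00535), *Aldh1a2*, which makes it, had −1.15 (adjusted p = 0.00563), and the receptor gene *Rarg* had −0.43 (adjusted p = 0.0307). For *Cyp26b1* the difference between the knockdowns changed by −1.17 between the days (adjusted p = 0.00223). It fell in siOct4 by 1.05 on the log2 scale.

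Within the bounds of the clusters, 17 of 21 listed other genes were in the table and 10 were tested. Of these, 1 was called in each direction in siOct4 over time, where 22.2% of all tested genes were called higher and 30.5% lower. None was called in the other 4 comparisons. In these, the shares of all tested genes were 1.07% and 30.7% between the knockdowns at day 3 and day 6. They were 34.8% in siNcor1 over time and 20.7% for the change of the difference. *Hoxaas2*, a transcript of cluster A opposite to *Hoxa3*, fell by 1.51 on the log2 scale (SE 0.34, adjusted p = 0.00302), with 31 and 17 reads in the siOct4 libraries of day 3, but 6 and 8 in those of day 6. *Hoxa3*, whose exons it overlaps on the other strand, fell in the same comparison. Whether counting used the strand is not given in the sources used here, so reads of the pair cannot be told apart. *Hotairm1*, a transcript of cluster A, rose by 1.03 (SE 0.39, adjusted p = 0.0421) from 9 and 5 reads in the siOct4 libraries of day 3 to 17 and 13 in those of day 6.

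Genes that flank the clusters did not share one direction. Of 9 tested flanking genes, 2 were lower in siOct4 at day 6 and none was higher, where 18.6% and 12.1% of all tested genes were. These were *Calcoco1*, beside cluster C (−0.63, adjusted p = 0.00564), and *Calcoco2*, with 50 and 63 reads in siNcor1 and 10 and 3 in siOct4. For *Calcoco1* the difference between the knockdowns changed by −0.64 between the days (adjusted p = 0.037). In siOct4 over time *Cbx5*, near cluster C, fell by 0.77 on the log2 scale (adjusted p = 7.48e-04), *Mtx2*, beside cluster D, rose by 0.70, and *Calcoco2* rose. In siNcor1, *Cbx5* (−0.87) and *Lnpk* (−0.70) fell, and *Calcoco1* (0.43) and *Calcoco2* rose.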

How the data were processed

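RNA-seq libraries were made from total RNA after removal of ribosomal RNA. The authors mapped reads to mm10 with STAR 2.5.2b and deposited log2 CPM values (log2-cpm) computed with edgeR 3.20.9. The counting tool, the annotation and the use of strand are not given in the sources used here. Subtracting the lowest deposited value on the linear scale (0.136 CPM) gave whole reads for 100% of values within 0.1 read, and CPM in the text are without that constant. A zero-count gene therefore has a finite log2 value, and differences of low genes are understated. Since the deposited values were log2 and not counts, limma 3.58.1 (R 4.3.3) with a trend of the variance was fitted to them in place of a count model, over 8 libraries in 4 groups and 13866 genes, those averaging 1 CPM or more. The script was tested on simulated data. Gene positions and exon overlaps came from GENCODE M21 (18969 of 18990 identifiers matched). The 3 read limits cover counting error only. All Hox members were named, and genes of the other lists where called. Members and lists were chosen with earlier results of these data known. Other scalings, filters, pseudocounts, variance models, voom, smaller fits, a replicate block and leaving out libraries were tried. Some items are not reported here.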

Additional observations from a re-analysis of the deposited data

Results flagged for a closer look

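In 4 Hox genes the difference between the libraries labelled siOct4 and the siNcor1 libraries changed between day 3 and day 6, by the interaction term of limma over the 8 libraries. The change was −1.02 (SE 0.24, adjusted p = 0.0133) for *Hoxb9*, −0.90 (SE 0.24, adjusted p = 0.024) for *Hoxc6*, −1.56 (SE 0.22, adjusted p = 0.00119) for *Hoxc8* and −1.65 (SE 0.49, adjusted p = 0.035) for *Hoxc13*, all on the log2 scale. Of the 8 fits that left out a library, *Hoxc8* was called in 8, *Hoxb9* in 5, *Hoxc6* in 3 and *Hoxc13* in 1. Of all tested genes, 20.7% were called by this term.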

How the results depend on the processing

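The number of Hox members called from day 3 to day 6 in siOct4 was 12, and it became 3 when a mean of at least 10 CPM was required, which left 6 members to test. In siNcor1 the count was 1, and it became 3 with quantile normalization, 2 without the trend of the variance, 4 with only the groups compared and 2 with the replicate block. Between the knockdowns at day 6 the count of 5 became 3 with only the groups compared. When each library was left out in turn, the counts were between 9 and 15 in siOct4 over time, 0 and 4 in siNcor1 over time, 2 and 7 at day 6, and 1 and 5 for the change of the difference, and 0 at day 3 in every fit. At day 6 the count was 2 without either siNcor1 day 6 library and 3 without siOct4 day 6 replicate 2. Leaving out a library reversed the uncalled differences over time in siOct4 of *Hoxa7*, which was 0.22 and ranged from −0.42 without siOct4 day 6 replicate 1 to 0.85 without replicate 2, and of *Hoxd11*, which was −0.76 and ranged from −1.72 without siOct4 day 6 replicate 1 to 0.20 without replicate 2. The causes of these changes were not tested. Samples of the same replicate number had correlated deviations of −0.040 to 0.281, so the numbers were not taken to pair the samples; with the replicate block the counts were 0 at day 3, 6 at day 6, 2 in siNcor1 and 13 in siOct4 over time, and 6 for the change of the difference. Among all called genes, the share that was higher moved from 39.5% to 27.5% at day 6 with library totals without normalization factors, which shifted the median of all genes to −0.11, and from 39.8% to 49.7% in siNcor1 over time with totals without *Gm26917*. With 2 libraries per group and members at a few CPM, smaller differences were not detectable.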
